A study of Homo sapiens with 6 samples.

Results

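The genes described here are 35 members of central carbon metabolism, taken by symbol from count tables of 28278 gene symbols, and all 35 were found and tested. They cover glycolysis, lactate formation and export, the control of pyruvate entry into mitochondria, and the pentose phosphate pathway. RNA was profiled in HCT116, an established human colon carcinoma line. Cells of 3 libraries stably carried a scrambled shRNA (shControl, genotype labelled WT), and cells of the other 3 carried an shRNA directed at TRIM21 (shTRIM21, labelled TRIM21 knockdown). Both groups were infected with lentivirus, were put under 5 µg/ml puromycin starting 36 h later, and are labelled day 21, so the control cells share the infection and the drug. The labels call the 3 libraries of a group biological replicates but name no clone and do not say whether they came from separate infections, so the p-values measure only the spread between these libraries.

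Glycolysis breaks glucose down to pyruvate in the cytosol, and most of its steps are served by several isozymes encoded by separate genes. Pyruvate is either reduced to lactate and exported by monocarboxylate transporters, or carried into mitochondria and oxidised by the pyruvate dehydrogenase complex, which is switched off by its kinases and switched on by its phosphatases. The pentose phosphate pathway branches off at glucose 6-phosphate and yields NADPH and ribose 5-phosphate. Colon carcinoma cells, like many tumour cells, are known for high glycolytic flux and lactate release, and several of the genes below are textbook targets of the hypoxia-inducible factors and of MYC.

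Library totals ran from 22656160 to 27123657 counts. Values in CPM are counts scaled by library size. TRIM21 (ENSG00000132109, chr11:4384897-4393696, minus strand, GRCh38), the targeted gene, had 11.8, 11.7 and 15.8 CPM in shControl and 8.83, 8.18 and 6.68 CPM in shTRIM21, at 0.603 of the control level (log2 fold change -0.73, standard error 0.17, adjusted p = 0.0124). That call was lost without shTRIM21 replicate 3 (-0.62, adjusted p = 0.0734) and, with -0.45 and an adjusted p of 0.114, when replicate 3 of both groups was dropped. Replicate 3 stood apart in each group, with ribosomal RNA genes at 6.69% of counts in shControl and 9.55% in shTRIM21, against 13.2% to 15.2% in the other 4 libraries. No pair of replicates was a duplicate: over genes, counts differed by a chi-square per degree of freedom of 5.86 to 77.1, highest for the pairs with shControl replicate 3. Of 15 epithelial and colon markers 6 reached 5 CPM (EPCAM, KRT8, KRT18, CDX2, VIL1 and ESRP2), while CDX1 and LGALS4 were listed at 0 in all libraries. Their summed level ran from 229 to 248 CPM in shControl and from 220.5 to 222 CPM in shTRIM21. None of the 23 fibroblast, endothelial and leukocyte markers reached 5 CPM, and the summed level of each of these lists stayed at or below 0.49 CPM in every library, with PTPRC at most 0.0409 CPM and COL1A2, DCN and CDH5 at 0.

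In the shTRIM21 cells 9 of the 35 genes rose, 2 fell and 24 did not pass the test (edgeR's quasi-likelihood test, Benjamini-Hochberg adjusted p under 0.05 over 14002 genes). Those that rose were HK1, PFKP, ALDOA, ALDOC, PGK1, PGAM1, ENO2, PDK1 and TALDO1, and those that fell were HK2 and SLC16A1. Over all genes 9.08% passed in either direction. Members called higher were 25.7% of the list against 4.43% of all genes tested, and members called lower 5.71% against 4.66%. Among genes with a mean of at least 20 CPM, where changes are easier to detect, 8 of 29 members rose and 2 fell, against 5.85% and 7.63% of the 7468 such genes. The median log2 fold change of the members was 0.15, beside 0.01 over all genes tested, and 27 of the 35 were positive, as were 51.8% of all genes. By library, the median member lay 0.21, 0.08 and 0.14 above its control mean on the log2 scale in shTRIM21 replicates 1 to 3, and between 0 and 0.01 in the shControl libraries. Together the 35 genes took 0.981% ± 0.0153 of the counts in shControl and 1.04% ± 0.0397 in shTRIM21 (SD, n = 3 per group). Those totals include the ribosomal RNA genes, at 6.69% to 15.2% of counts by library, so these shares and their spread depend on them.

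The groups did not overlap for 16 members, 13 higher and 3 lower in shTRIM21, where 14.1% and 13.9% of all genes tested behaved so (28.1% in either direction). The changes were small. ENO2 moved most among the called genes, at 1.60-fold, and the other 8 that rose did so by 1.14-fold to 1.40-fold. The number that rose was 4 without shTRIM21 replicate 1 and 4 without shTRIM21 replicate 3, and the number that fell was 1 without shTRIM21 replicate 2. HK1, ENO2, SLC16A1 and PDK1 kept their calls in all 15 alternative fits.

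**Figure D1:**
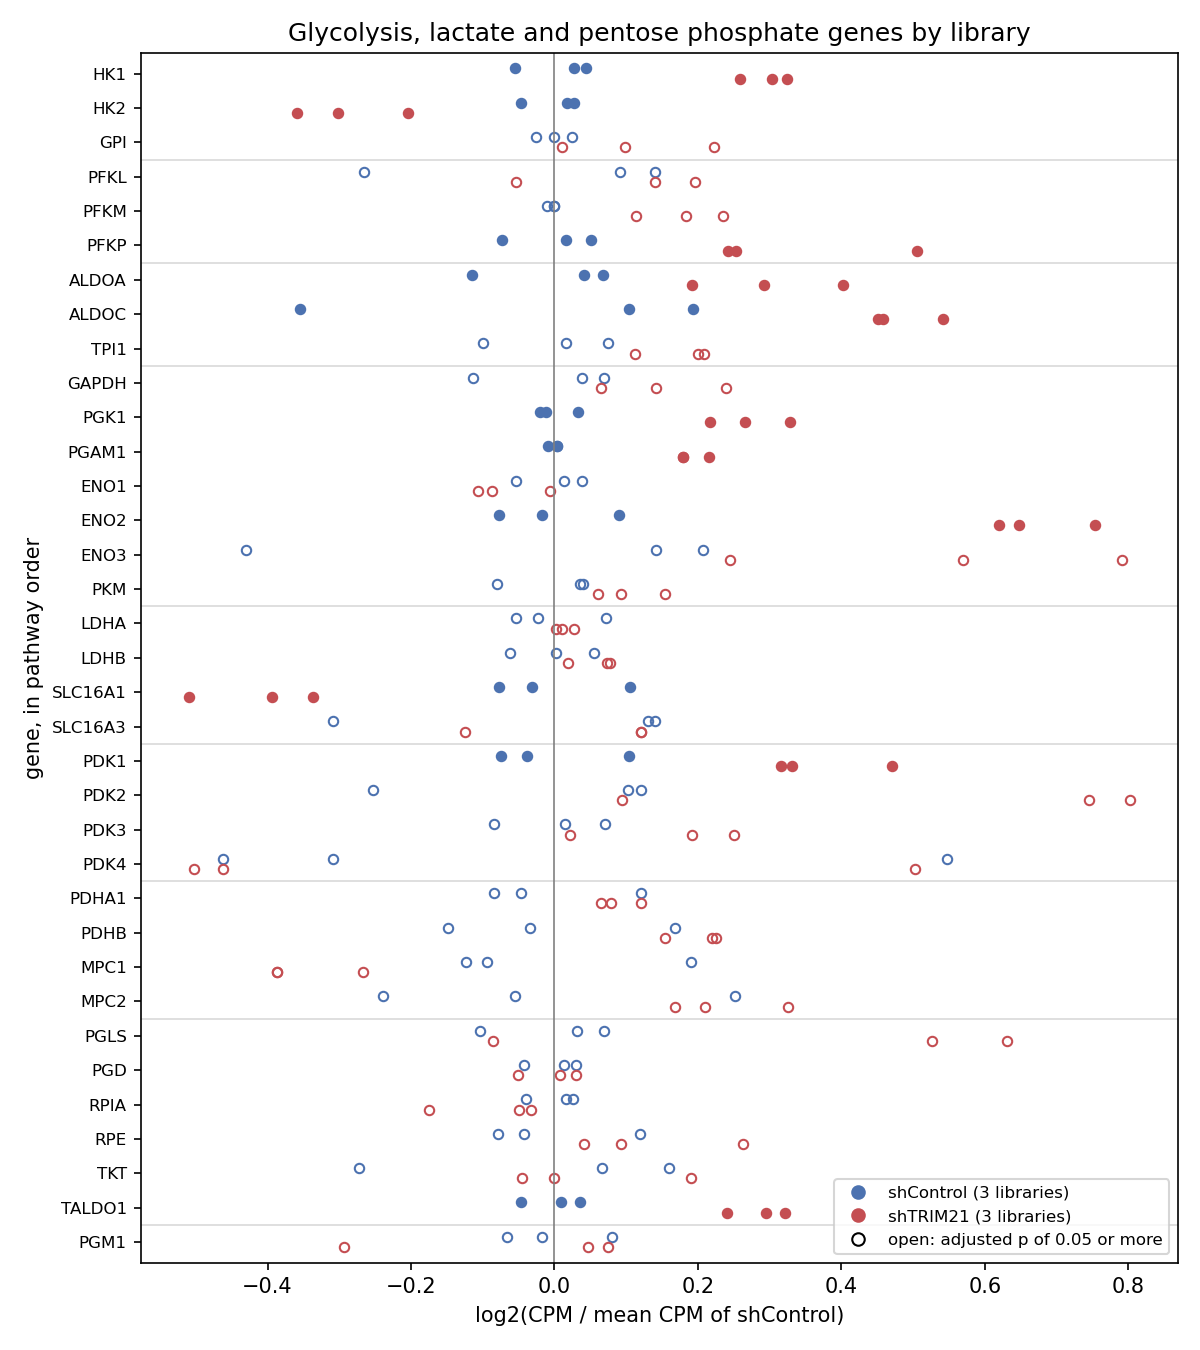
Level of each of the 35 genes in each library, as log2 of CPM over the shControl mean, in pathway order; blue points are shControl and red points shTRIM21, and open points mark genes that did not pass the test. ENO2 lies farthest to the right among the filled points, at 103 to 113 CPM in shTRIM21 against 63.5 to 71.3 CPM in shControl, while HK2 and SLC16A1 lie to the left.

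Levels are compared between genes only as mean CPM per kilobase of the principal annotated transcript, a scale on which the members spanned more than 3 orders of magnitude. GAPDH was highest in shControl, at 1124 CPM per kb, followed by LDHB (657), ENO1 (628), TPI1 (489), PKM (379.8), LDHA (340.1), PGAM1 (247) and ALDOA (219). The lowest were ENO3 at 0.563 and PDK4 at 0.551 CPM per kb, the muscle enolase and a kinase known from fasting muscle. All of the 8 most abundant members catalyse steps from aldolase to lactate, whereas the hexokinases (HK1 29.8, HK2 27.5) and phosphofructokinase subunits (PFKM 45.5, PFKP 16.7, PFKL 4.69) at the head of the pathway were lower. Among pentose phosphate genes PGD was highest at 84.7 CPM per kb and PGLS lowest at 4.36. The value for PDK1 (4.89) rests on a principal transcript of 14193 bases and would be higher for a shorter one.

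**Figure D2:**
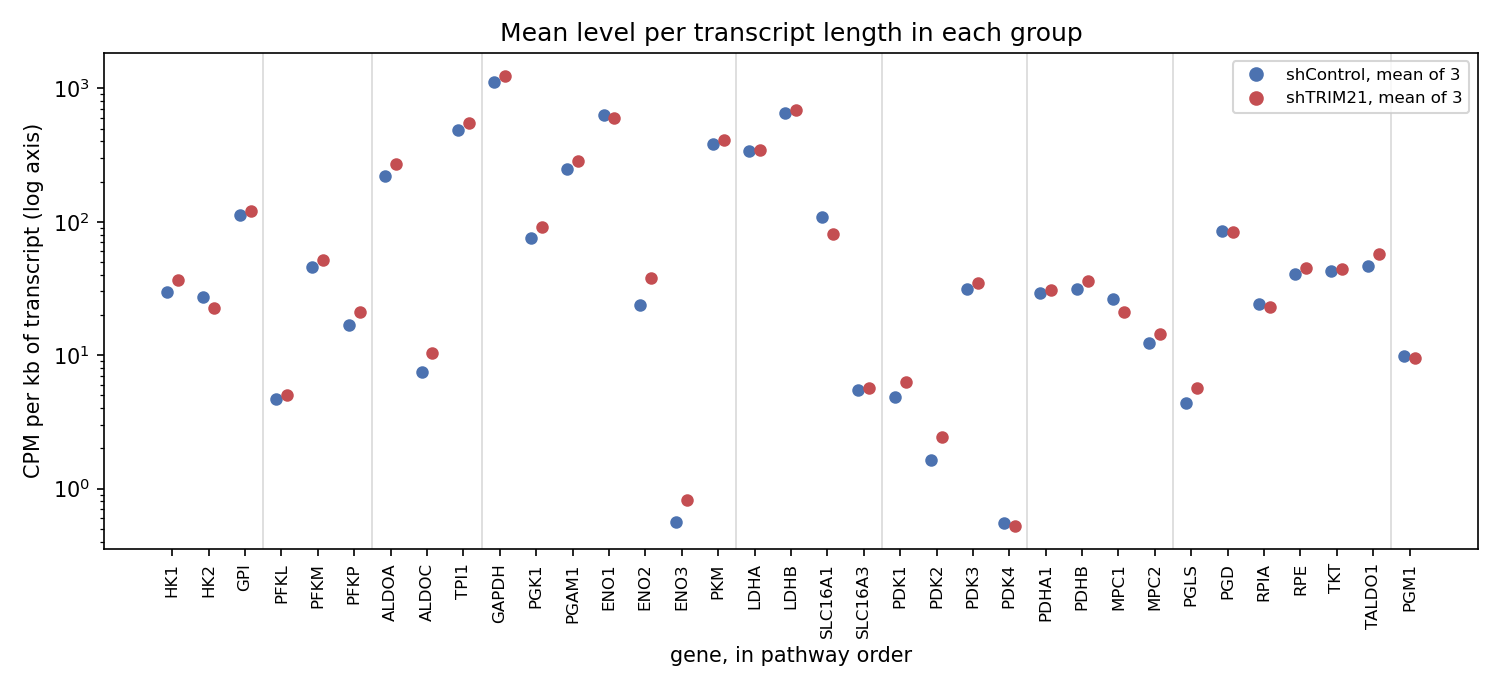
Mean level of each gene in CPM per kilobase of its principal transcript, on a log axis, for shControl (blue) and shTRIM21 (red), each point the mean of 3 libraries. GAPDH stands at the top and ENO3 and PDK4 at the bottom in both groups, and the difference between groups is small beside the range over genes.

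At the first step of glycolysis the hexokinases HK1 and HK2 moved in opposite directions. Both phosphorylate glucose to glucose 6-phosphate, HK1 as the housekeeping form and HK2 as the inducible form that many tumours express. HK1 (ENSG00000156515, chr10:69269984-69401884, plus strand) had 110.3, 109 and 103 CPM in shControl and 134, 128 and 132 CPM in shTRIM21. Each shTRIM21 library lay above every control, and the log2 fold change was 0.29 (SE 0.07, adjusted p = 0.00908). HK2 (ENSG00000159399, chr2:74833981-74893359, plus strand) had 154, 162 and 161 CPM in shControl and 124, 129 and 138 CPM in shTRIM21. Here each shTRIM21 library lay below every control (-0.29, SE 0.07, adjusted p = 0.00976), a call lost without shTRIM21 replicate 2 (adjusted p = 0.0552). Per kilobase, HK1 made up 52.0% ± 1.45 of hexokinase transcripts in shControl and 61.8% ± 1.48 in shTRIM21 (SD, n = 3 per group). These shares depend on the annotated transcript lengths, since in mean CPM HK2 (159) was above HK1 (107) in shControl. GPI, which turns glucose 6-phosphate into fructose 6-phosphate, had 224 to 232 CPM in shControl and 229.7 to 266 CPM in shTRIM21 and did not pass (0.11, adjusted p = 0.316). PGM1, which links glucose 6-phosphate with glycogen, did not pass either (-0.05, adjusted p = 0.864).

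Phosphofructokinase commits sugar to glycolysis and is built from liver (PFKL), muscle (PFKM) and platelet (PFKP) subunits. PFKP had 46.0, 44.9 and 42.2 CPM in shControl and 63.0, 52.9 and 52.5 CPM in shTRIM21. All 3 shTRIM21 libraries were higher, replicate 1 most of all (0.34, SE 0.09, adjusted p = 0.0237), and the call was lost without shControl replicate 2 (0.0604) or shTRIM21 replicate 1 (0.131). PFKM, the main subunit at 68.0% ± 1.49 of phosphofructokinase transcripts per kilobase in shControl, had 147, 146 and 147 CPM there and 173, 167 and 159 CPM in shTRIM21. These groups did not overlap, yet PFKM did not pass (0.18, SE 0.06, adjusted p = 0.0815). It passed without shControl replicate 3 (0.0411), without replicate 3 of both groups (0.0303), with upper quartile scaling (0.043) and with a GC-length offset, in which transcript GC content and length are fitted as a trend and removed (0.0205). Its exons overlap those of SENP1 on the opposite strand by 628 bases, and whether counting used strand is not stated. PFKL had 11.4 to 15.1 CPM in shControl and 13.2 to 15.7 CPM in shTRIM21, ranges that overlap.

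Aldolase splits fructose 1,6-bisphosphate, and triose phosphate isomerase (TPI1) interconverts its products. ALDOA, the predominant aldolase at 96.7% ± 0.408 of aldolase transcripts per kilobase in shControl, had 361, 368 and 324 CPM there and 464, 401 and 429.6 CPM in shTRIM21. It rose in all 3 shTRIM21 libraries (0.30, SE 0.07, adjusted p = 0.0103). The ALDOA call was lost without shTRIM21 replicate 1 (0.0551) or 3 (0.0557), and with the GC-length offset its fold change was 0.16 (adjusted p = 0.0123). ALDOC, the brain-type aldolase, had 15.8, 16.8 and 11.5 CPM in shControl and 20.1, 21.4 and 20.2 CPM in shTRIM21. The shControl value of replicate 3 was the lowest, and the shTRIM21 libraries lay close together above all controls (0.48, SE 0.14, adjusted p = 0.0399). The ALDOC call was lost without shControl replicate 1 (0.062) or 3 (0.0839), without shTRIM21 replicate 1 (0.0852), 2 (0.138) or 3 (0.103), and without replicate 3 of both groups (0.107, log2 fold change 0.35). TPI1 had 609.9, 635 and 563 CPM in shControl and 697, 652 and 693 CPM in shTRIM21, groups that did not overlap. It did not pass (0.18, SE 0.06, adjusted p = 0.0971), although DESeq2 called it (0.0368).

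In lower glycolysis 3 of 7 genes rose and none fell, beside 4.43% and 4.66% of all genes tested. The enolases were split. ENO2, the neuron-type enolase (ENSG00000111674, chr12:6913745-6923698, plus strand), had 63.5, 66.2 and 71.3 CPM in shControl and 105, 103 and 113 CPM in shTRIM21. Every shTRIM21 library was far above every control (0.67, SE 0.07, adjusted p = 8.15e-06). ENO1, the ubiquitous enolase, had 1128, 1148 and 1077 CPM in shControl and 1113, 1038 and 1052 CPM in shTRIM21, overlapping ranges (-0.07, SE 0.06, adjusted p = 0.596). With the GC-length offset ENO1 passed as lower (-0.15, adjusted p = 0.0263). The ENO2 share of enolase transcripts per kilobase was 3.64% ± 0.313 in shControl and 5.93% ± 0.359 in shTRIM21 (SD, n = 3 per group), so ENO1 remained the bulk of enolase mRNA in every library. ENO3 had 17 to 36 counts per library, and PFN1, which overlaps it on the opposite strand, had 94786 counts over the 6 libraries, so no direction is read for ENO3.

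PGK1, which makes the first ATP of the pathway, had 366, 368 and 379.6 CPM in shControl and 431, 446 and 466 CPM in shTRIM21. It was higher in every shTRIM21 library (0.27, SE 0.06, adjusted p = 0.00776), a call lost without shTRIM21 replicate 3 (0.0697). PGAM1, the phosphoglycerate mutase, had 454, 450 and 454 CPM in shControl and 526, 513 and 513 CPM in shTRIM21. The libraries of each group lay close together and the shift was small (0.19, SE 0.06, adjusted p = 0.0391). The PGAM1 call was lost without shControl replicate 1 (0.134) or 2 (0.131), without shTRIM21 replicate 1 (0.0974), 2 (0.115) or 3 (0.124), and with DESeq2 size factors in edgeR (0.0506). GAPDH, often used as a reference gene, had 2164, 2211 and 1948 CPM in shControl and 2488, 2206 and 2325 CPM in shTRIM21, with overlap between the groups (0.15, SE 0.08, adjusted p = 0.281). PKM, the pyruvate kinase that ends glycolysis, had 976 to 1061 CPM in shControl and 1076 to 1148 CPM in shTRIM21, without overlap, and did not pass (0.10, SE 0.07, adjusted p = 0.378). Its splice forms were not separated in the tables.

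Many of these genes have processed pseudogene copies, and the sources used here do not say how reads shared with such copies were counted. The GENCODE annotation names 62 such copies for GAPDH, 13 for PGAM1, 6 each for LDHA and RPE, 5 for PKM, 4 each for TPI1 and ENO1 and 3 for LDHB, whereas the count tables list only TPI1P2, TPI1P3 and PGAM1P5. TPI1P2 and TPI1P3 together held 303 counts over the 6 libraries, 0.314% of the TPI1 count. Levels of GAPDH and PGAM1 are the most uncertain in this respect.

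Promoter sequences are shown for ENO2, PGK1 and ALDOC, which rose, and for ENO1 and LDHA, abundant partners of the same stretch of the pathway that did not pass. They come from RefSeq (GRCh38.p14), run 5′ to 3′ on the strand of the gene, and hold 250 bases before and 50 bases after an annotated start, with every ACGTG on either strand in capitals. ACGTG is a form of the core of the hypoxia response element, and other forms, such as GCGTG, were not searched. Where ACGTG is part of the palindrome CACGTG, the E-box that MYC and MAX bind, it occurs on both strands at once. The windows are chr12:6914330-6914629 (plus strand) for ENO2, chrX:78103998-78104297 (plus) for PGK1, chr17:28576846-28577145 (minus) for ALDOC, chr1:8878637-8878936 (minus) for ENO1 and chr11:18394313-18394612 (plus) for the first of the LDHA starts.
ENO2: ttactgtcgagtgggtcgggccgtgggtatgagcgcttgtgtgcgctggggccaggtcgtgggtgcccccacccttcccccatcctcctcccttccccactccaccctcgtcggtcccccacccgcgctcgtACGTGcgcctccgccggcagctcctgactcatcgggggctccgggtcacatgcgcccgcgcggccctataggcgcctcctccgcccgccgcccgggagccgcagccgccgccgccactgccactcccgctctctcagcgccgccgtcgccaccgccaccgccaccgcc
PGK1: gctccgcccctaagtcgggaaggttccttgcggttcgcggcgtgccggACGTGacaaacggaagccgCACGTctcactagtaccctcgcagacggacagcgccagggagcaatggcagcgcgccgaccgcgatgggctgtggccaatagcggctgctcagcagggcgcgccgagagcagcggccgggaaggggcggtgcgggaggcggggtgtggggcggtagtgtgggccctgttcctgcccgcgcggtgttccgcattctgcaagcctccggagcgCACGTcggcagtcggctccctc
ALDOC: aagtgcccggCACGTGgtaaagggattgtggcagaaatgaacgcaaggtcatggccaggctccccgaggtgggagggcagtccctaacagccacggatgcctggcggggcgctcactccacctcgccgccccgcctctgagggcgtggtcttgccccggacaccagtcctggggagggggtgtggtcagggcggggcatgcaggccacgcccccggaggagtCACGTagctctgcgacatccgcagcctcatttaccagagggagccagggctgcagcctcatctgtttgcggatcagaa
ENO1: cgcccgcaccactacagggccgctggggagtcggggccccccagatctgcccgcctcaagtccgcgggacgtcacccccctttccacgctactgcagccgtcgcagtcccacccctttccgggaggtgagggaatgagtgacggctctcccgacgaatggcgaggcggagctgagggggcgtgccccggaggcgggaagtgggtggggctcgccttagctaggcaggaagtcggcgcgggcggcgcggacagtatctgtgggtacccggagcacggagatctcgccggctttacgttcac
LDHA: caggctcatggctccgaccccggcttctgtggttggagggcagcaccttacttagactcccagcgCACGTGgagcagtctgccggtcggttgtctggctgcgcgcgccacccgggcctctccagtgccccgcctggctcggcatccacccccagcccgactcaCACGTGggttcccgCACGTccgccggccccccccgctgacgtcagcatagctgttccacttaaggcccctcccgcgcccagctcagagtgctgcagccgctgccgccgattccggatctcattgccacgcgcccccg

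Counted on each strand, ACGTG occurred 1 time in the ENO2 window, 3 times in PGK1, 3 times in ALDOC, 5 times in LDHA and 0 times in ENO1. The 0 for ENO1 holds for ACGTG only, since its window contains GCGTG, which was not counted in any promoter. CACGTG occurred 2 times in LDHA and 1 time in ALDOC. The table held 66 promoters of 34 members (SLC16A1 was not among them), several of them overlapping starts of one gene. ACGTG was in 22 of the 66 and in 21.4% of all 35116 promoters, CACGTG in 7 and in 7.26%, and TGACNNNGC, the core of the antioxidant response element, in 8 and in 13.3%, both strands searched in each case. By gene, ACGTG was in at least 1 start of 6 of the 9 members that rose, of HK2 among those that fell, and of 11 of the 24 that did not pass. The 21.4% counts promoters, and a member with several starts had more windows to match in. No share by gene was computed over all genes, so the counts by gene have no background here. LDHA had the most ACGTG matches of the 5 windows shown and a log2 fold change of 0.01, and ENO2 had 1 match and 0.67. The second LDHA start, not shown (chr11:18396101-18396400), held 0 matches. A link between matches and fold changes was not tested.

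Lactate dehydrogenase reduces pyruvate to lactate as tetramers of LDHA and LDHB chains. LDHA had 809, 792 and 864 CPM in shControl and 828, 823 and 838 CPM in shTRIM21, all within the control range (0.01, SE 0.06, adjusted p = 0.927). LDHB had 857, 820.2 and 889.6 CPM in shControl and 867, 903 and 901 CPM in shTRIM21, overlapping ranges (0.06, SE 0.06, adjusted p = 0.637). LDHB made up 65.9% ± 0.331 of the dehydrogenase transcripts per kilobase in shControl and 66.6% ± 0.512 in shTRIM21 (SD, n = 3 per group). This share rests on the annotated transcript lengths, 2416 bases for LDHA and 1303 for LDHB. By counts, LDHB was 1.03 to 1.06 times LDHA in the shControl libraries.

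SLC16A1 encodes MCT1, a lactate and pyruvate carrier, and it was the member that fell most. The gene (ENSG00000155380, chr1:112911847-112957013, minus strand) had 401, 414 and 455 CPM in shControl and 297, 322 and 335 CPM in shTRIM21. Every shTRIM21 library lay below every control (-0.41, SE 0.07, adjusted p = 0.000593), and the fold change stayed between -0.45 and -0.35 over the 15 alternative fits. SLC16A3, which encodes MCT4, the carrier of highly glycolytic cells, had 29.2, 29 and 21.4 CPM in shControl and 28.8, 24.3 and 28.8 CPM in shTRIM21, with overlap (0.04, SE 0.13, adjusted p = 0.875). SLC16A3 exons overlap those of CSNK1D on the opposite strand by 482 bases, and CSNK1D held 10212 counts over the 6 libraries against 4045 for SLC16A3. BSG, basigin, the chaperone that brings both carriers to the membrane, did not pass (0.18, SE 0.08, adjusted p = 0.178), nor did its relative EMB (-0.06, adjusted p = 0.759).

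Pyruvate dehydrogenase kinases phosphorylate the E1 alpha subunit PDHA1 and stop pyruvate oxidation. PDK1 (ENSG00000152256, chr2:172555373-172608669, plus strand) had 67.6, 65.9 and 74.6 CPM in shControl and 86.4, 96.2 and 87.3 CPM in shTRIM21. It was higher in all 3 shTRIM21 libraries (0.37, SE 0.08, adjusted p = 0.00454) and was called in every alternative fit. PDK2 had 4.70, 6.01 and 6.09 CPM in shControl and 9.77, 5.98 and 9.39 CPM in shTRIM21. Replicate 2 of shTRIM21 lay within the control range and the gene did not pass (0.58, SE 0.21, adjusted p = 0.0985). It passed without that library (0.0484) and with no filter on low counts (0.0452), and its exons overlap those of SAMD14 on the opposite strand by 2113 bases. PDK3 made up 81.6% ± 2.26 of the kinase transcripts per kilobase in shControl, a share that rests on the long PDK1 transcript, since in CPM PDK1 (69.4) was above PDK3 (60.3). PDK3 did not pass (0.16, SE 0.08, adjusted p = 0.271), and PDK4 had 31 to 81 counts per library.

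The opposing phosphatase PDP1, which is not a member of the list, also rose. It had 126, 131 and 116 CPM in shControl and 182, 199 and 191 CPM in shTRIM21, without overlap (0.62, SE 0.07, adjusted p = 8.2e-06), and kept its call in all 15 alternative fits. The other phosphatase catalytic subunit, PDP2, did not pass (-0.10, adjusted p = 0.456), nor did the regulatory subunit PDPR (-0.10, adjusted p = 0.369). A kinase and a phosphatase of the same complex were thus both higher.

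Neither pyruvate dehydrogenase E1 gene passed. PDHA1 had 91.1 to 105 CPM in shControl and 101 to 105 CPM in shTRIM21, and PDHB 43.2 to 53.8 CPM and 53.3 to 56.0 CPM. PDHB passed without shControl replicate 3 (0.30 on the log2 scale, adjusted p = 0.0219), and also when both replicates numbered 3 were dropped (0.29, adjusted p = 0.048). PDHX, which tethers the E3 subunit, fell slightly (-0.27, SE 0.08, adjusted p = 0.0453), a call lost without any 1 of the 6 libraries (adjusted p from 0.0727 to 0.151), without replicate 3 of both groups (0.108) and in limma-voom (0.052). The E2 subunit DLAT (-0.12, adjusted p = 0.438) and the E3 subunit DLD (0.08, adjusted p = 0.512) did not pass.

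The mitochondrial pyruvate carrier is a dimer of MPC1 and MPC2. MPC1 had 23.9, 23.4 and 29.1 CPM in shControl and 21.2, 19.5 and 19.5 CPM in shTRIM21, each shTRIM21 library below every control (-0.35, SE 0.12, adjusted p = 0.0781). MPC2 had 25.8, 22.7 and 31.9 CPM in shControl and 33.6, 30.1 and 31.0 CPM in shTRIM21, with overlap (0.24, SE 0.12, adjusted p = 0.247). Neither passed, although MPC1 did with the GC-length offset (-0.40, adjusted p = 0.0136), and MPC2 did without shControl replicate 3 (0.0236) and without replicate 3 of both groups (0.0348). Replicate 3 of shControl was the highest control for both genes, and the ratio of the genes within a library varied less than either level.

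Ratios of paired genes within a library do not depend on how libraries are scaled, and 10 were compared by an exact permutation test, two-sided, in which 3 against 3 cannot go below 0.1. The count of ENO2 relative to ENO1 was 0.0563, 0.0576 and 0.0662 in shControl and 0.0942, 0.0994 and 0.107 in shTRIM21, a 1.67-fold higher mean. The HK2 to HK1 ratio was 1.40, 1.48 and 1.57 in shControl and 0.924, 1.01 and 1.04 in shTRIM21, which is 0.669 of the control ratio. MPC2 relative to MPC1 went from 1.08, 0.969 and 1.10 to 1.58, 1.55 and 1.59, or 1.5-fold. These 3 ratios separated the groups by several times the spread within them, as did no other.

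SLC16A3 relative to SLC16A1 was 0.0729, 0.070 and 0.047 in shControl and 0.0972, 0.0755 and 0.0859 in shTRIM21, also without overlap, with a log2 difference of 0.47 that was 0.26 without shControl replicate 3 and 0.26 without replicate 3 of both groups. PDHB relative to PDHA1 did not overlap either and differed by only 0.11 on the log2 scale. Each of these 5 ratios reached the smallest exact permutation p of 0.1, or 0.2 adjusted by Benjamini-Hochberg over the 10 ratios, so none passed 0.05. The other 5 ratios (PFKP to PFKL, PFKM to PFKL, ALDOC to ALDOA, LDHB to LDHA and PDK3 to PDK1) overlapped between groups, with exact permutation p from 0.2 to 0.6.

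**Figure D3:**
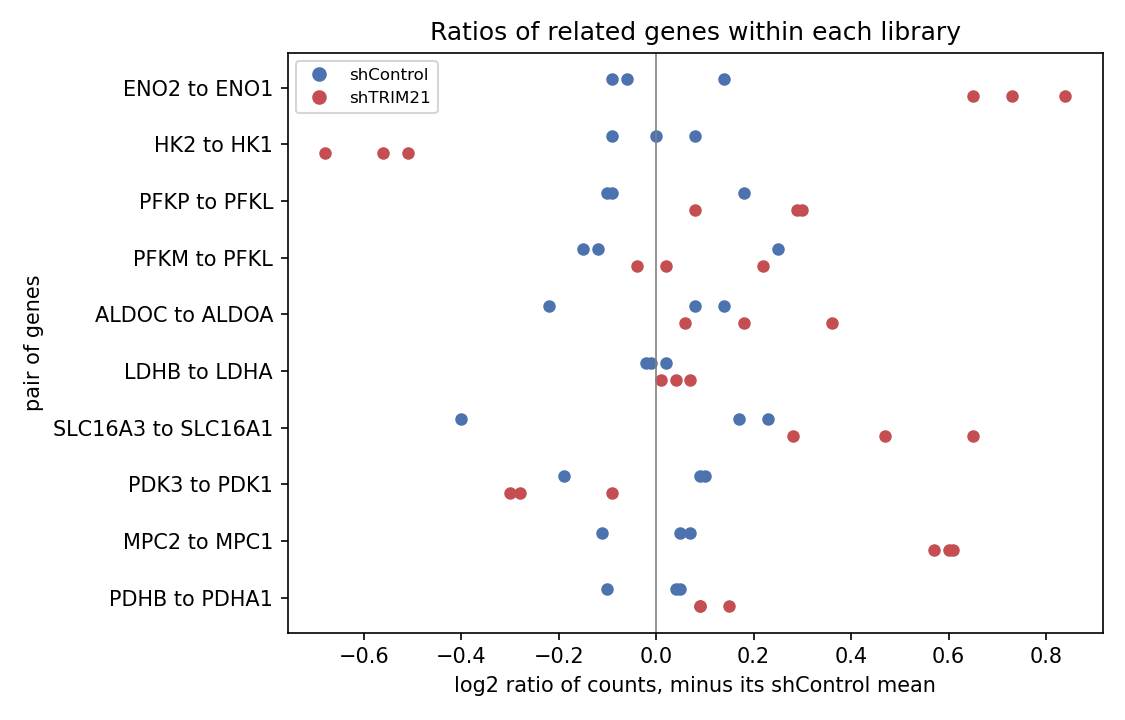
Log2 ratio of the counts of paired genes in each library, minus the shControl mean of that ratio; blue points are shControl and red points shTRIM21, 3 libraries each. ENO2 to ENO1 (0.74 higher) and MPC2 to MPC1 (0.59 higher) separate to the right and HK2 to HK1 (difference -0.58) to the left, while LDHB to LDHA stays near 0.

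Of the 6 pentose phosphate genes in the list 1 rose, beside 4.43% of all genes tested. TALDO1, transaldolase of the non-oxidative branch, had 64.6, 63.4 and 61.0 CPM in shControl and 78.7, 74.4 and 77.3 CPM in shTRIM21. It was higher in every shTRIM21 library (0.28, SE 0.07, adjusted p = 0.0194). The TALDO1 call was lost without shControl replicate 1 (0.054) or 2 (0.0613), without shTRIM21 replicate 1 (0.0659), 2 (0.0521) or 3 (0.078), and with the GC-length offset (0.16, adjusted p = 0.0848). Its partner transketolase, TKT, had 106 to 143 CPM in shControl and 124 to 146 CPM in shTRIM21 (0.06, adjusted p = 0.771).

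PGD, an NADPH-forming enzyme, had 155 to 163 CPM in shControl and 154 to 163 CPM in shTRIM21, nearly the same range (0.00, SE 0.06, adjusted p = 0.975). RPIA and RPE, which interconvert pentose phosphates, had log2 fold changes of -0.08 and 0.13 (adjusted p of 0.608 and 0.332), and RPE passed only with the GC-length offset (0.17, adjusted p = 0.0482). PGLS, the lactonase, had 4.17 to 4.70 CPM in shControl and 6.94, 4.22 and 6.45 CPM in shTRIM21, with replicate 2 inside the control range (0.39, SE 0.23, adjusted p = 0.329).

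H6PD, which starts the pathway inside the endoplasmic reticulum and is not in the list, fell from 11.8, 10.5 and 10.5 CPM to 7.10, 7.14 and 5.60 CPM (-0.73, SE 0.17, adjusted p = 0.0124), and lost its call without shControl replicate 1 (0.062) or shTRIM21 replicate 3 (0.067). SHPK, sedoheptulokinase, rose (0.40, SE 0.12, adjusted p = 0.0344) and lost its call without each of 5 libraries (0.0548 to 0.184; it held without shControl replicate 3) and without replicate 3 of both groups (0.144, log2 fold change 0.30).

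Neighbouring genes of the same pathways were taken from 11 lists, in which 84 genes were tested and 5 rose, 4 fell and 75 did not pass, and the median log2 fold change was 0.04. The 9 called genes were 10.7% of those tested, near the 9.08% over all genes. SLC2A1, the glucose transporter GLUT1, had 51.8, 49.3 and 47.5 CPM in shControl and 66.6, 54.7 and 57.7 CPM in shTRIM21. Its groups did not overlap and it did not pass (0.27, SE 0.09, adjusted p = 0.063). Fits in which it passed include those with no filter on low counts (0.0399) and with the GC-length offset (0.0305). SLC2A3, the transporter GLUT3, was at 0.00 (adjusted p = 0.986), and SLC2A10 fell (-0.38, SE 0.12, adjusted p = 0.0455). The SLC2A10 call was lost in 7 alternative fits: without shControl replicate 1 (0.189) or 2 (0.0823), without shTRIM21 replicate 1 (0.102), 2 (0.155) or 3 (0.0939), with upper quartile scaling (0.0607) and in limma-voom (0.0531).

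Among enzymes that set fructose 2,6-bisphosphate, the activator of phosphofructokinase, PFKFB2 rose from 20, 23.3 and 26.0 CPM to 26.2, 34.5 and 31.3 CPM (0.40, SE 0.12, adjusted p = 0.0472). The PFKFB2 call was lost without shControl replicate 1 (0.201) or 2 (0.0971), without shTRIM21 replicate 2 (0.231) or 3 (0.147), with DESeq2 size factors in edgeR (0.0514) and in limma-voom (0.0674). PFKFB3 (0.24, adjusted p = 0.0655) passed only with upper quartile scaling (0.0437), and PFKFB4 (0.43, adjusted p = 0.176) and TIGAR (-0.03, adjusted p = 0.842) did not pass. ADPGK, an ADP-dependent glucokinase of the endoplasmic reticulum, rose from 45.7, 42.9 and 45 CPM to 65.2, 65.4 and 68.7 CPM (0.58, SE 0.08, adjusted p = 0.000107) and kept its call in all 15 alternative fits.

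Of 11 tested regulators of glycolytic genes 0 passed in edgeR's test, beside 9.08% of all genes, and DESeq2 and limma-voom each called 1, MYC. In edgeR 2 regulators (MYC and NFE2L2) had an unadjusted p under 0.05, as did 3188 of the 14002 genes tested. HIF1A, the oxygen-regulated subunit, had a log2 fold change of 0.07 (SE 0.07, adjusted p = 0.602) and is known to be controlled mainly as a protein. MYC had 0.19 (SE 0.06, adjusted p = 0.0558) and passed with upper quartile scaling (0.0294), in DESeq2 (0.0163), in limma-voom (0.0428) and without shControl replicate 3 (0.0362), while the GC-length offset brought it to 0.05.

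**Figure D4:**
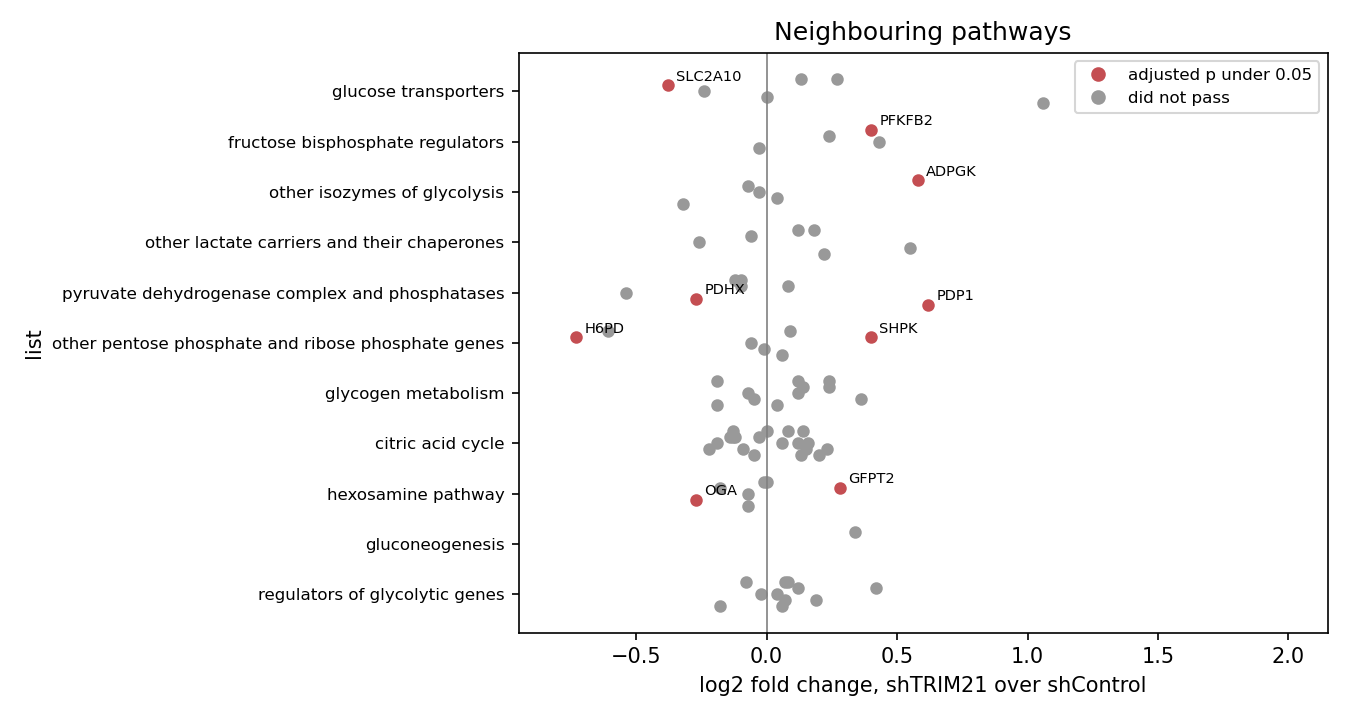
Log2 fold changes (shTRIM21 over shControl) of tested genes in 11 lists of neighbouring pathways; each point is 1 gene, red and named where the adjusted p was under 0.05. The citric acid cycle genes cluster around 0 with none called, while PDP1 and ADPGK lie to the right and H6PD to the left.

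Fold changes over all genes moved with base composition, and many of these genes are rich in G and C. The median log2 fold change was -0.05 over 4787 tested genes with a transcript GC content under 45%, 0.02 over 4513 genes from 45% to 55% and 0.09 over 4154 genes at 55% or more. Of the members, 15 fell in the last class, with a median of 0.28, and the GC-length offset lowered all 15, by a median of 0.09 (median shift -0.09). With that offset 10 members were called higher and 4 lower, against 6.49% and 6.79% of all genes, and the members' median was 0.10 beside 0.00 over all genes. ENO2 (0.63), PGK1 (0.32), PDK1 (0.48), HK1 (0.26), HK2 (-0.27) and SLC16A1 (-0.36) kept their direction and call there. So did PFKP (0.26), ALDOA (0.16), ALDOC (0.40) and PGAM1 (0.13), while TALDO1 (0.16) lost its call. GAPDH (0.04), TPI1 (0.06) and PKM (0.03), which had not passed in the main fit, came close to 0.

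**Figure D5:**
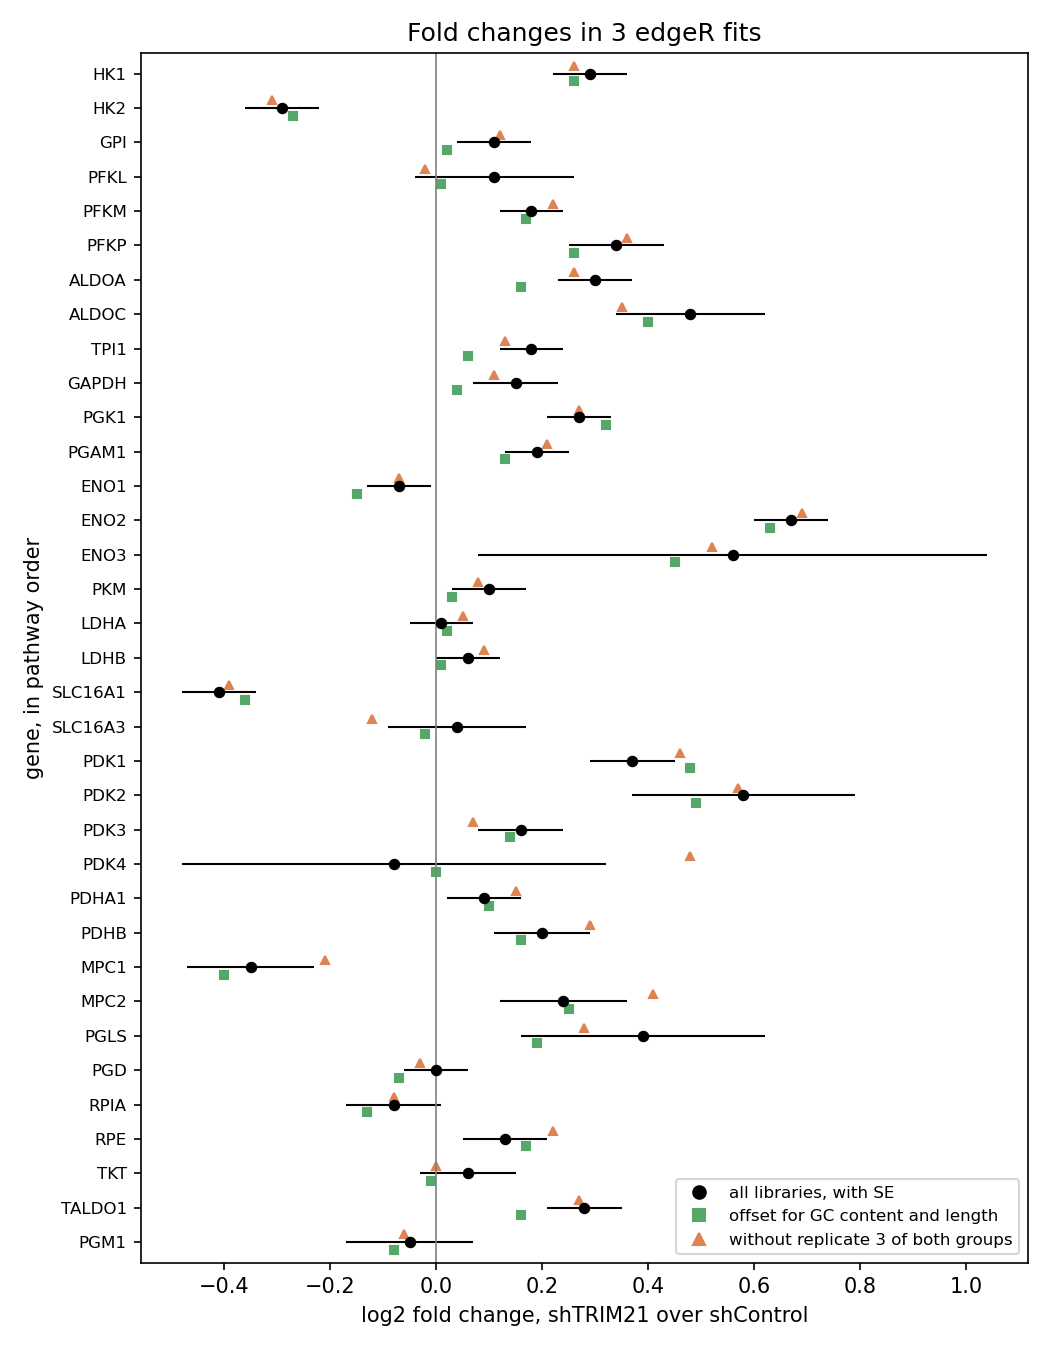
Log2 fold change of each gene in the fit of all libraries (black, with SE), with a GC-length offset (green squares) and without replicate 3 of both groups (orange triangles). ENO2, HK1, HK2, SLC16A1 and PDK1 stay on the same side of 0 in the 3 fits, and ALDOA moves from 0.30 to 0.16 with the offset.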

How the data were processed

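The authors deposited one table per library holding whole-number counts for each gene symbol. The submitters' processing notes name the hg38 build, TopHat2 2.1.1, limma 3.52.2 and edgeR 3.38.1. How reads were counted (tool, annotation, strand, multiple hits) was not given in the sources used here. From these counts, genes passing edgeR's default filter (14002) were scaled by TMM and tested with the quasi-likelihood test of edgeR 4.0.16 (R 4.3.3), shTRIM21 against shControl, with Benjamini-Hochberg adjustment over all of them and a threshold of 0.05. Fold changes are log2, CPM uses TMM-scaled library sizes, and the standard error (SE) is the fold change divided by the square root of F. Alternatives used DESeq2 1.42.0, limma-voom (limma 3.58.1), other scalings and filters, fits lacking 1 library or replicate 3 of both groups, a block on replicate number, and a GC-length offset from GENCODE release 29 (96.1% of tested genes matched). In 5 simulated data sets of 14002 genes the test recovered 33.2% of genes changed 1.25-fold, 81.2% at 1.5-fold and 96.8% at 2-fold among genes of at least 5 CPM, and 6.71% of its calls were false. Each set held 200 changed genes, fewer than the 1272 called in the data, and no difference of replicate 3 was built in. These rates may therefore differ from those in the data. Named genes were TRIM21, every member, up to 4 called genes of each neighbouring list with any that went the other way, and 7 genes set by name; other non-members were named after their values were seen. The members, lists and tests were chosen with earlier results of these data known. Some genes of the neighbouring lists are not reported here and were left out of the counts.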

Additional observations from a re-analysis of the deposited data

How the results depend on the processing

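The count of members that rose was between 4 and 11 with 1 library left out, against 9, and the count that fell was between 1 and 2, against 2. Under the GC-length offset 4 members were lower, since ENO1 and MPC1 then passed. The members' median log2 fold change ran from 0.13 to 0.18 with 1 library left out. Over all genes 1272 were changed, between 602 and 801 without any 1 library other than shControl replicate 3, and 1737 without that one. The TRIM21 log2 fold change lay between -0.82 and -0.56 in the fits lacking 1 library, and was -0.45 without replicate 3 of both groups, where the cause was not tested. Of the 11 called members 4 kept their call in all 15 alternatives, and 8 of the 24 others passed in at least 1.

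The labels do not say whether equal replicate numbers mark paired samples, and the counts do not settle it. Deviations from the group means correlated by 0.096, -0.0123 and 0.0907 between libraries of equal number. Numbers 1 and 3 correlated best with themselves and number 2 did not, and all of these correlations were weak. With the replicate number as a block, 1699 genes were changed, 9 members rose and 2 fell, and TRIM21 was at -0.72. SLC2A1 (adjusted p = 0.0331), MYC (0.0414), GYS1 (0.0208) and MDH1 (0.0447) passed there. At this depth ENO3 and PDK4, with at most 81 counts per library, were not resolved.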

Other observations

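Of 19 genes of the citric acid cycle and its cytosolic isozymes 0 passed in edgeR's test, beside 9.08% of all genes. The 19 had a median log2 fold change of 0.00. In edgeR 3 of them had an unadjusted p under 0.05, as did 3188 of the 14002 genes tested. Limma-voom called 0 of the 19 and DESeq2 1. That gene was MDH1, the cytosolic malate dehydrogenase (0.20, SE 0.07, adjusted p = 0.0605, and 0.0414 in DESeq2). Without shControl replicate 3 the list had 3 called genes: the cytosolic enzymes MDH1 (0.0127) and IDH1 (0.0317) higher, and DLST (0.0233), a subunit of the cycle's 2-oxoglutarate dehydrogenase, lower.

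Of 11 tested glycogen genes 0 passed in edgeR, DESeq2 or limma-voom, where 9.08% of all genes passed in edgeR. In edgeR 4 of the 11 had an unadjusted p under 0.05, as did 3188 of the 14002 genes tested. The muscle-type glycogen synthase GYS1 had 37.8, 41.9 and 34.4 CPM in shControl and 62.0, 44.7 and 39.6 CPM in shTRIM21, where replicate 1 was far above the other 2 (0.36, SE 0.13, adjusted p = 0.0904). It passed without shTRIM21 replicate 3 (0.0446), without replicate 3 of both groups (0.0238) and with no filter on low counts (0.00619). UGP2, which makes UDP-glucose, passed without shControl replicate 3 (0.0202) and without replicate 3 of both groups (0.0467), and the branching enzyme GBE1 passed with upper quartile scaling (0.0479) and with the GC-length offset (0.0125).

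In the hexosamine pathway, which turns fructose 6-phosphate into the donor of O-GlcNAc, GFPT2 rose and OGA fell among 7 genes tested. Over all genes tested, 9.08% passed in edgeR. GFPT2, an isozyme of the entry enzyme, had 75.3, 81.5 and 76.8 CPM in shControl and 99.7, 92.6 and 91.8 CPM in shTRIM21 (0.28, SE 0.07, adjusted p = 0.0182). Its call was lost without shControl replicate 1 (0.0898) or shTRIM21 replicate 1 (0.0779) or 2 (0.0545). OGA, which removes O-GlcNAc from proteins, had 263, 266 and 275 CPM in shControl and 215, 228 and 226 CPM in shTRIM21 (-0.27, SE 0.06, adjusted p = 0.00869) and kept its call in all 15 alternative fits. OGT, which adds the sugar, did not pass (-0.07, adjusted p = 0.552), nor did the other entry enzyme, GFPT1 (-0.01, adjusted p = 0.956).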
